A study of Mus musculus with 6 samples.

Results

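The genes of the cytosolic ribosomal proteins were compared between 2 subsets of mouse natural killer (NK) cells. They were taken as every gene whose symbol in the authors' deposited table of comparisons begins with Rpl or Rps and a digit, together with Rpsa, Rplp0, Rplp1 and Rplp2, without symbols marked -ps and without the Rps6k kinases. This gave 86 genes of 21441 measured, in 440 rows of that table and 859 exon-level probe sets, a probe set being a group of probes for 1 stretch of a transcript. Of the 86, 46 encode large subunit proteins and 31 small subunit proteins, 8 are paralogue-like genes named after another member, and 1, Rps19bp1, matches the symbol pattern but encodes a protein that binds Rps19. Rps4y2 was counted as paralogue-like because RefSeq lists it as Rps4l.

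The cells came from spleens of C57BL/6 mice, which the strain field gives as C57BL/5, and the labels name no engineered allele. Splenocytes were depleted of Thy1.2-bearing cells with complement and grown for 7 days in 1000 IU of interleukin-2. They were then sorted as CD3-negative, CD122-positive cells that were either Ly49C/I+ and Ly49G2-negative (Ly49C/I+) or Ly49G2+ and Ly49C/I-negative (Ly49G2+), with 3 arrays each. The labels do not give the age or number of the mice, nor whether samples were separate cultures, so the p-values here cover variation among these 3 and 3 samples, some or all of which could be technical. The labels' title puts Ly49G2+ replicate 1 in its group while its source label names the other subset, so values without it are given below.

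Ribosomes are built from several RNAs and a large set of proteins, most of them encoded in mouse by a single active gene beside many inactive processed copies elsewhere in the genome. Ribosomal protein transcripts begin with a stretch of pyrimidines that places their translation under the control of mTOR and LARP1. Several of the genes carry small nucleolar RNAs in their introns, which guide the chemical modification of ribosomal RNA. In NK cells, interleukin-2 drives growth and protein synthesis.

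A pyrimidine stretch near the listed start of the transcript was looked up for the 8 genes of lowest p in each direction, because a stretch of this kind at the start of the transcript is known for this family. It was searched in RefSeq's promoter table (GRCm38.p6) within 50 bases on either side of the listed start on the gene's strand. The motif was CTTTCC, with the close variants CTTTTC (pyrimidines changed inside), then also CTTTCT (changed at the end) and lastly CTTTTT (changed in both places), which can overlap each other. Of the 86 genes, 65 had an entry, and 37 of these (56.9%) held a match, against 4701 of 27025 genes in the table (17.4%). On the opposite strand 6 of the 65 (9.23%) and 4362 of all genes (16.1%) held one. Among the 16 looked up, 12 had an entry and 6 held a match, shown here with 10 bases before it and the match in capitals.
Rpl12: caggatccgtCTTTTCggctttcggctcgg
Rpl38: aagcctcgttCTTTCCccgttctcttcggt
Rps15a: ggcccactctCTTTCTgccatcttccctcg
Rpl27a: gagctcctccCTTTTCcctttctgccaccg
Rps24: gagcggtcctCTTTTCctcctctccagctc
Rps19: ccgtcgttccCTTTCCcctggctggcagcg
In this assembly they lie at chr2:32961704-32961733 (plus strand), chr11:114668570-114668599 (plus strand), chr7:118116139-118116168 (minus strand), chr7:109519188-109519217 (plus strand), chr14:24490710-24490739 (plus strand) and chr7:24884625-24884654 (plus strand), in the order shown. Means leaned toward Ly49C/I+ for Rpl12, Rpl38 and Rps15a and toward Ly49G2+ for Rpl27a, Rps24 and Rps19. Counted from the listed start, the match began at 0 bases in Rpl38, 2 in Rpl12 and 3 in Rpl27a, but at -11 in Rps15a, -33 in Rps24 and -41 in Rps19, which is before the listed start.

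The ribosomal protein genes as a whole differed little between the subsets. In limma across all 21441 genes, 2 of the 86 passed an adjusted p under 0.05 (Benjamini-Hochberg over all genes), 1 toward Ly49C/I+ cells and 1 toward Ly49G2+ cells, which is 2.33% of the family. Over all genes 2118 passed (9.88%), with 1321 toward Ly49C/I+ (6.16%) and 797 toward Ly49G2+ (3.72%). The median difference of the 86, Ly49C/I+ minus Ly49G2+ on the log2 scale, was 0.005, beside -0.010 over all genes, with 44 genes above 0 and 42 below. The median size of the difference was 0.041 for the family and 0.062 for all genes. Because these are sorted bulk samples, fewer cells of a type and less RNA per cell cannot be told apart.

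The small differences came with narrow intervals. For 79 of the 86 genes (91.9%) the whole 95% interval lay within 1.2-fold of equality, beside 79.3% of all genes. The share differed with the number of rows averaged per gene. It was 84.2% for the 19 members with 1 row and 100% for the 25 with over 5 rows. The median size of the difference was 0.051 and 0.023 in these 2 sets. How much the averaging of rows contributes was not tested. Without adjustment, 4 genes in each direction had p under 0.05, beside 12.3% of all genes toward Ly49C/I+ and 10.7% toward Ly49G2+. The 3 arrays of one subset did not overlap the 3 of the other for 21 genes, which is 24.4% of the family, beside 27.8% of all genes. Ly49C/I+ arrays were the higher ones in 9 of these genes (14.3% of all genes) and Ly49G2+ arrays in 12 (13.5% of all genes). Many of the genes were bright on the array. The mean signal exceeded 12 on the log2 scale for 42 of the 86 (48.8%) and for 1.38% of all genes, and 347 of the 859 probe sets (40.4%) lay above the 99th percentile of all probe sets, where array signals respond less than in proportion to RNA. How much of the small spread this accounts for was not tested.

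**Figure D1:**
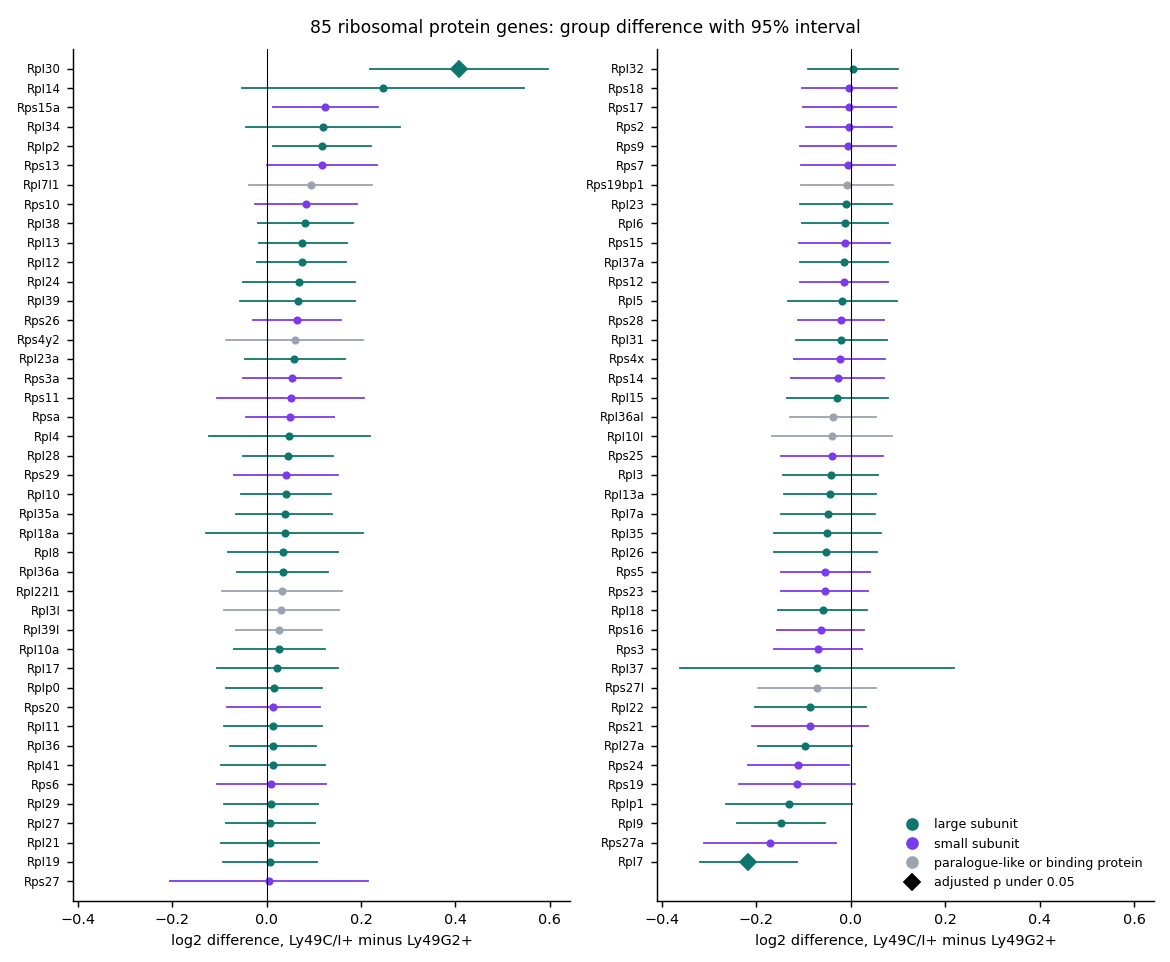
Log2 difference (Ly49C/I+ minus Ly49G2+, horizontal axis) of 85 of the 86 genes, each with its 95% interval from limma, coloured by subunit, in descending order down the left and then the right panel. Rpl30 and Rpl7 are the diamonds, and 78 of the 85 intervals lie within 1.2-fold of equality.

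Among the 46 large subunit genes 1 passed in each direction and 44 did not pass. Rpl30, a protein near the interface with the small subunit that in yeast also binds its own transcript, had log2 signals of 8.28, 8.34 and 8.49 in Ly49C/I+ cells, against 7.77, 8.07 and 8.05 in Ly49G2+ cells. All Ly49C/I+ arrays lay above all Ly49G2+ arrays. Rpl30 was higher in Ly49C/I+ cells by 0.41 ± 0.084 (SE, n = 3 each), or 1.33-fold, with an interval of 1.16-fold to 1.51-fold and an adjusted p of 0.013 in limma. Without Ly49G2+ replicate 1 the difference was 0.31 (adjusted p = 0.0243), and without Ly49C/I+ replicate 3 it was 0.35 and no longer passed (adjusted p = 0.0679). The authors' deposited table gives Rpl30 a ratio of 1.1 with p = 0.284, and over 19 alternatives the limma or deposited adjusted p ran from 0.00373 to 0.587, passing in 16.

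Rpl7, a large subunit protein and the only member to pass toward Ly49G2+ cells, had signals of 11.80, 11.90 and 11.90 in Ly49C/I+ cells, against 12.08, 12.10 and 12.07 in Ly49G2+ cells. The groups did not overlap. Rpl7 was lower in Ly49C/I+ cells by -0.22 ± 0.046 on the log2 scale, a change of 1.16-fold with an adjusted p of 0.0153 in limma. Without Ly49G2+ replicate 1 it was -0.22 (adjusted p = 0.0499), and without Ly49C/I+ replicate 1 it was -0.18 and no longer passed (adjusted p = 0.0593). Over the 19 alternatives the adjusted p ran from 0.000376 to 0.118, passing in 15.

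Rpl9, another large subunit protein, came next in the same direction. It had 12.34, 12.39 and 12.36 in Ly49C/I+ cells, against 12.53, 12.50 and 12.50 in Ly49G2+ cells, again without overlap. The difference was -0.15 ± 0.042, and it missed the threshold (adjusted p = 0.0552 in limma), while 8 of 19 alternatives put it past the threshold, with adjusted p from 0.00142 to 0.172. Rpl27a had a difference of -0.10 (adjusted p = 0.23), with 12.16, 12.22 and 12.19 in Ly49C/I+ cells, against 12.28, 12.25 and 12.34 in Ly49G2+ cells.

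In the other direction the large subunit genes of lowest p after Rpl30 were Rplp2, Rpl14, Rpl13, Rpl38 and Rpl12, and none passed. Rpl14 had the second largest difference of the family, 0.25 ± 0.13, with 9.15, 9.44 and 9.34 in Ly49C/I+ cells, against 9.20, 8.71 and 9.28 in Ly49G2+ cells. Ly49G2+ replicate 2 stood below the other arrays, the groups overlapped, and the adjusted p was 0.317. Rpl38, a protein that in mice also bears on the translation of Hox transcripts, differed by 0.08 (adjusted p = 0.325), and Rpl13 by 0.08 (adjusted p = 0.321). Rpl12, near the base of the stalk, differed by 0.07 (adjusted p = 0.342), with 11.96, 12.00 and 12.01 in Ly49C/I+ cells, against 11.94, 11.89 and 11.92 in Ly49G2+ cells.

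Rpl5 and Rpl11, which with the 5S RNA bind Mdm2 when ribosome assembly is disturbed, differed by -0.02 and 0.01. Their 95% intervals ran from -0.13 to 0.10 and from -0.09 to 0.12 on the log2 scale.

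No small subunit gene of 31 passed in limma in either direction, with 2 in each direction at an unadjusted p under 0.05. Under 19 alternatives, Rps15a, Rps27a, Rps16 and Rps21 were among the small subunit genes that passed in at least 1. Rps15a had the lowest p toward Ly49C/I+ cells within the subunit. It had 11.39, 11.44 and 11.42 in Ly49C/I+ cells, against 11.38, 11.24 and 11.27 in Ly49G2+ cells, a difference of 0.12 ± 0.050 (adjusted p = 0.165 in limma). The lowest Ly49C/I+ array was only just above the highest Ly49G2+ array. Rps13 differed by 0.12 (adjusted p = 0.217).

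Toward Ly49G2+ cells the lowest p in the small subunit belonged to Rps27a, made as a fusion with ubiquitin. It had 10.52, 10.72 and 10.72 in Ly49C/I+ cells, against 10.84, 10.77 and 10.87 in Ly49G2+ cells, a difference of -0.17 ± 0.062 (adjusted p = 0.129). Ly49C/I+ replicate 1 was the lowest array, and the groups did not overlap. Rps24 and Rps19, both mutated in Diamond-Blackfan anaemia in humans, differed by -0.11 each (adjusted p = 0.2 and 0.259). Rps3, at the entry of the messenger RNA channel, differed by -0.07 (adjusted p = 0.372).

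Rps6, the protein phosphorylated by the S6 kinases, had 12.72, 12.89 and 12.82 in Ly49C/I+ cells, against 12.81, 12.81 and 12.80 in Ly49G2+ cells, and its interval ran from -0.11 to 0.13. Rpsa, which also serves as a laminin receptor, differed by 0.05, with an interval from -0.04 to 0.14.

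**Figure D2:**
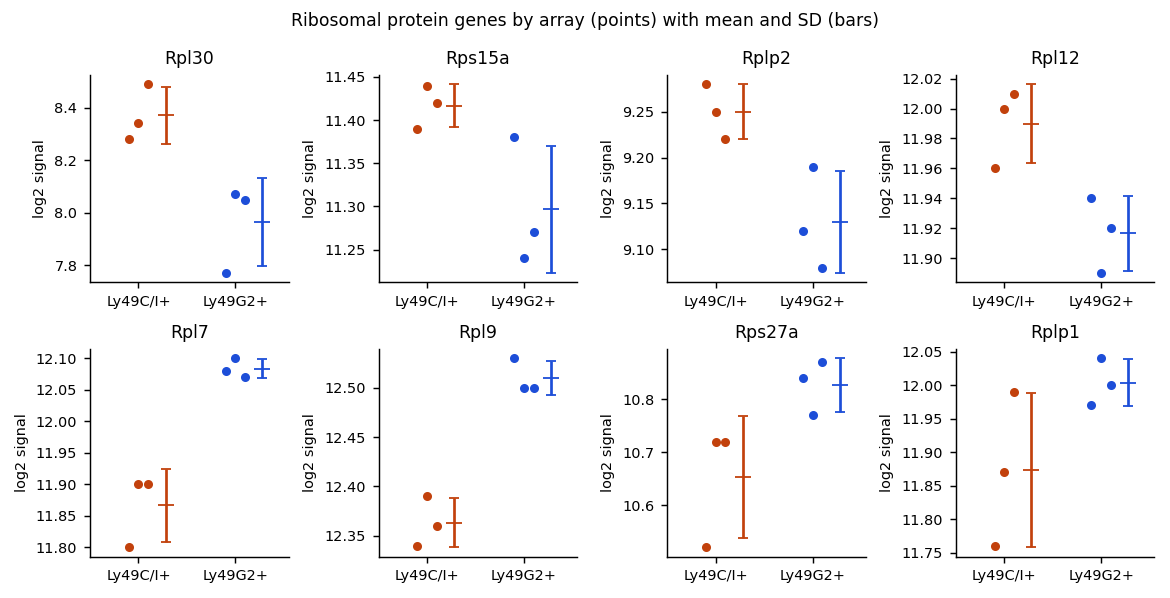
Log2 signal (vertical axis, scaled for each gene and not starting at 0) of 8 ribosomal protein genes on each array, with mean and SD beside the points, Ly49C/I+ left and Ly49G2+ right. Of the 8, Rpl30 and Rpl7 passed in limma, and Rplp1 has overlapping groups.

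The acidic stalk proteins, which recruit the elongation factors, gave 0 of 3 genes past the threshold in limma (1 at an unadjusted p under 0.05), and their differences had both signs. Rplp2 had 9.28, 9.25 and 9.22 in Ly49C/I+ cells, against 9.12, 9.19 and 9.08 in Ly49G2+ cells, a difference of 0.12 (adjusted p = 0.163). Rplp1 had 11.76, 11.87 and 11.99 in Ly49C/I+ cells, against 11.97, 12.04 and 12.00 in Ly49G2+ cells, a difference of -0.13 (adjusted p = 0.227), and its groups overlapped. Rplp0, their anchor on the ribosome, differed by 0.02 (adjusted p = 0.882).

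None of the 8 paralogue-like genes passed in limma or in any alternative run for it (17 for Rpl39l, which was left out by the filters on dim signal, and 19 for the others), 0 had an unadjusted p under 0.05, and all 8 intervals lay within 1.2-fold. Rpl22l1 differed by 0.03 and Rpl22, needed for alpha-beta T cell development in mice, by -0.09. Rps27l, a p53 target in human cells, differed by -0.07 and Rps27 by 0.005. Rpl7l1, a nucleolar protein, differed by 0.09, whereas its namesake Rpl7 was lower in Ly49C/I+ cells. The difference between these 2 genes was not tested. Rpl36al and Rpl36a differed by -0.04 and 0.03, Rpl10l and Rpl10 by -0.04 and 0.04, Rpl39l and Rpl39 by 0.03 and 0.07, Rpl3l and Rpl3 by 0.03 and -0.04, and Rps4y2 and Rps4x by 0.06 and -0.02. Rpl39l, a gene of the testis, had a mean signal of 4.86 in Ly49C/I+ cells, against 4.84 in Ly49G2+ cells, both below the lower quartile of all genes (5.85).

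Many members shifted together on single arrays. Ly49C/I+ replicate 1 was the lowest of its group for 71 of the 86 genes (82.6%), beside 35.8% of all genes. Ly49G2+ replicate 2 was the lowest of its group for 57 genes (66.3%), beside 37.7% of all genes. The median deviation from the group mean was -0.047 for the first array and -0.019 for the second. Leaving out 1 array at a time moved the family's median difference between -0.017 and 0.021.

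Within a gene, the difference could depend on which probe sets were read. The deposited table spreads 67 of the 86 symbols over several rows, up to 42 for 1 gene, and 291 of the 440 rows have 1 probe set. Rows beyond the one with most probe sets hold 433 of the 859 probe sets, and processed copies cannot be told apart from the active gene where their sequences match. Identical values on every array occurred in 48 probe sets of 18 genes. With only the row of most probe sets per gene, a choice made after the data were seen, 3 genes passed in each direction, beside 9.74% of all genes in either.

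Rpl12 differed between its rows. In the row with most probe sets it had 9.02, 9.07 and 8.79 in Ly49C/I+ cells, against 8.36, 8.13 and 8.35 in Ly49G2+ cells, a difference of 0.68 ± 0.085 (adjusted p = 0.00091 in limma). The adjusted p of Rpl12 over 19 alternatives ran up to 0.988. Its 4 probe sets there differed by 0.18, 0.65, 0.86 and 1.03. Of the 11 probe sets in its other rows, the 7 brightest lay above a signal of 12 and none of those 7 differed by more than 0.01. In the authors' deposited table Rpl12 has the only row of the family past the 1.5-fold change that the study recorded, with a ratio of 1.59, and 417 of the 440 rows (94.8%) have ratios within 1.1-fold. The authors' deposited p-values were adjusted over all 24692 named rows, and the row of lowest p was kept for each gene. They call 7 members, 1 toward Ly49C/I+ (Rpl12) and 6 toward Ly49G2+, beside 5.45% of all genes. Genes with more rows had more tries, and the members have 440 rows, up to 42 for 1 gene. The count and the share were not matched for this.

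Rpl30 had 1 row of 6 probe sets, and they did not move alike. Probe sets 1 to 3 were dim, with mean signals of 5.51, 5.95 and 4.98, near or below the lower quartile of all probe sets (5.84). They differed by 0.73, 0.79 and 0.39, and probe set 6 by 0.02. With probe sets below that quartile left out, Rpl30 differed by 0.33 (adjusted p = 0.0414 in limma). That setting kept the dim probe set with a signal of 5.95 and a difference of 0.79. Rpl30 without any of its dim probe sets was not tested. Probe set 4 had 10.08, 9.95 and 9.83 in Ly49C/I+ cells, against 9.16, 9.34 and 9.21 in Ly49G2+ cells, a difference of 0.72. Probe set 5, the brightest, had 13.17, 13.08 and 13.04 in Ly49C/I+ cells, against 13.23, 13.36 and 13.31 in Ly49G2+ cells, a difference of -0.20 in the opposite direction. Neither probe set had overlapping groups.

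Rpl7 and Rpl9 moved one way across their probe sets. All 10 probe sets of Rpl7 were lower in Ly49C/I+ cells, by -0.09 to -0.41, with no overlap in 9. All 14 of Rpl9 were lower, by -0.03 to -0.44, with no overlap in 12. Over all probe sets of named genes 8.7% were lower in Ly49C/I+ cells without overlap and 9.9% higher. Probe sets of 1 gene share its transcript and are not separate measurements of it. Rpl13 leaned the other way, with 9 of 15 probe sets higher in Ly49C/I+ cells without overlap and 0 lower, although the gene did not pass.

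Rps15a, which did not pass as a gene, passed on its larger row (0.24, adjusted p = 0.0223, within a range of 0.0223 to 0.619 over 19 alternatives), where 1 of 2 probe sets differed by 0.61 while the other differed by -0.12.

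**Figure D3:**
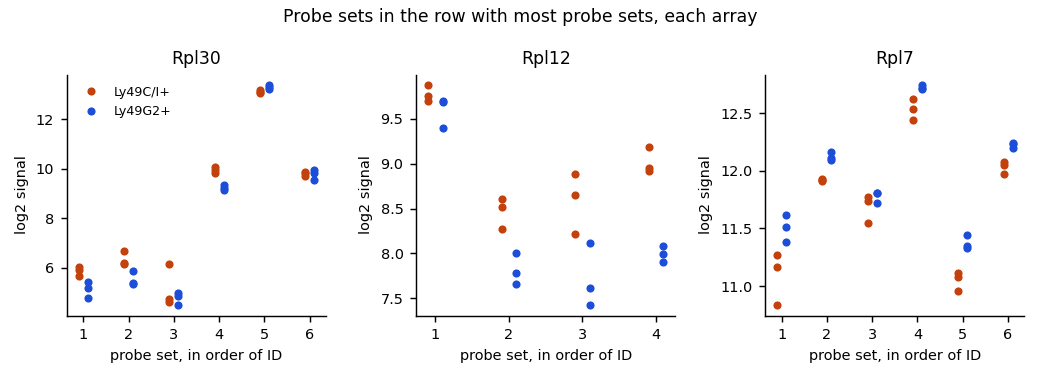
Log2 signal (vertical axis, scaled for each gene) of each probe set, in order of its ID, on each array, in the row with most probe sets of Rpl30, Rpl12 and Rpl7, with Ly49C/I+ points to the left of Ly49G2+ points. In Rpl30 probe set 4 is higher in Ly49C/I+ cells and probe set 5 lower, while in Rpl7 the mean of every probe set drawn is lower in Ly49C/I+ cells.

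The dim probe sets in the rows with most probe sets leaned toward Ly49C/I+ cells, while those in other rows did not. In rows with most probe sets, 48 probe sets of 31 genes had a mean signal of at most 8, and 13 of them (27.1%) were higher in Ly49C/I+ cells without overlap, against 1 (2.08%) in Ly49G2+ cells. Over all probe sets as dim, in any row and in named genes of any signal, the shares were 6.32% and 6.1%. No share was computed for dim probe sets of brighter genes alone. In the genes' other rows 24 probe sets were as dim, with 2 higher and 2 lower in Ly49C/I+ cells without overlap (8.33% each) and a median of 0.013. Of the 48, 31 belonged to genes with a mean signal above 8, with 12 higher in Ly49C/I+ cells, and 17 to 5 genes that were dim as a whole, with 1 higher. The 13 belonged to 11 genes, among them Rpl28 with a difference of 0.81, Rps13 with 0.63, Rpl6 with 0.51 and Rplp0 with 0.46. Above a signal of 12 the lean was the other way. There 15 of 244 probe sets (6.15%) were higher in Ly49C/I+ cells without overlap, against 33 (13.5%) in Ly49G2+ cells. The shares were 12.3% and 14.7% for all probe sets of named genes as bright. The median of the 48 dim probe sets was 0.080, and it ran from 0.023 without Ly49C/I+ replicate 2 to 0.099 without Ly49C/I+ replicate 1 (0.037 and 0.050 when Ly49C/I+ replicate 3 and Ly49G2+ replicate 1 were left out). The files give no position for a probe set, so whether the dim ones lie in introns or exons was not tested.

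**Figure D4:**
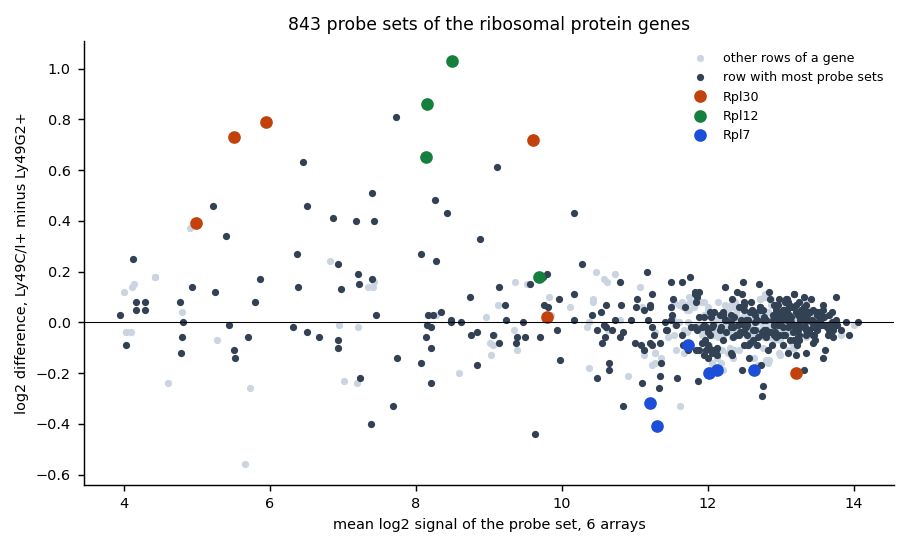
Each of 843 of the 859 probe sets by its mean log2 signal over 6 arrays (horizontal axis) and its log2 difference, Ly49C/I+ minus Ly49G2+ (vertical axis), in dark for rows with most probe sets and pale for other rows. Differences are spread widely below a signal of 10 and narrowly above 12, and the Rpl7 probe sets (signals of 11.21 to 12.63) and the brightest Rpl30 probe set lie below 0.

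Several small nucleolar RNAs inside ribosomal protein genes differed between the subsets while their hosts, averaged over their rows, did not pass. RefSeq (GRCm38.p6) places 60 such RNAs within 30 of the genes, on either strand, and 25 of them in 19 hosts were measured, 22 of these by 1 probe set. In limma 12 passed (48.0%), 10 toward Ly49C/I+ and 2 toward Ly49G2+, and 13 did not. With all rows of a gene averaged, 0 of the 19 hosts passed (2 at an unadjusted p under 0.05). The largest host difference was then 0.12 in size. Host values depend on the rows read. On its row with most probe sets the host Rpl12 differed by 0.68 (adjusted p = 0.00091 in limma), beside 0.61 for Snora65 inside it. Against the averaged host values, the difference was larger in size for 23 of the 25 RNAs, with Snora52 in Rplp2 and Snora62 in Rpsa as the exceptions. The gap between RNA and host was not tested. The shift was not limited to these RNAs. Of 48 other small nucleolar and Cajal body RNAs on the array, 22 passed (45.8%), 21 toward Ly49C/I+ (43.8%) and 1 toward Ly49G2+ (2.08%).

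Snord14a, a guide RNA in Rps13, had 9.66, 9.65 and 9.57 in Ly49C/I+ cells, against 8.82, 8.56 and 8.85 in Ly49G2+ cells, a rise of 0.88 ± 0.074 (1.84-fold, adjusted p = 0.000153). Its host Rps13 differed by 0.12. Snord16a in Rpl4 had 11.51, 11.42 and 11.37 in Ly49C/I+ cells, against 10.66, 10.61 and 10.60 in Ly49G2+ cells, a rise of 0.81 ± 0.049 (adjusted p = 3.71e-05), and Rpl4 differed by 0.05. For both RNAs the lowest Ly49C/I+ array lay well above the highest Ly49G2+ array.

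Snord42b in Rpl23a rose by 0.74, Snora21 in Rpl23 and Snora65 in Rpl12 by 0.61 each, Snora3 in Rpl27a by 0.49 and Snora70 in Rpl10 by 0.44. Snora3 rose although the mean of its host Rpl27a was lower in Ly49C/I+ cells. Snord15a in Rps3 rose by 0.31, whereas Snord15b in the same host differed by -0.07 (adjusted p = 0.491). Snord58b in Rpl17 rose by 0.68, but it was dim in both subsets. Its means, 5.57 (Ly49C/I+) and 4.90 (Ly49G2+), both lay under the lower quartile of all genes (5.85). Leaving out Ly49C/I+ replicate 3 took Snord58b to an adjusted p of 0.0673. Its call was also lost without moderation (0.184), with the median over probe sets (0.0699) and with the deposited p-values (0.171).

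Rpl13a, a host of 4 measured RNAs, went the other way. Snord35a had 9.48, 9.78 and 9.77 in Ly49C/I+ cells, against 10.08, 10.01 and 10.30 in Ly49G2+ cells, and was lower in Ly49C/I+ cells by -0.45 (adjusted p = 0.013), a call lost without moderation (0.174), with the median over probe sets (0.0768) and with the deposited p-values (0.183). Snord33 was lower by -0.31 (adjusted p = 0.0353), a call lost on leaving out replicate 1 or 3 of either subset (adjusted p = 0.0685 to 0.107), and Snord32a and Snord34 differed by -0.22 and -0.12 without passing. Ly49C/I+ replicate 1 was the lowest array for all 4 of these RNAs. Rpl13a itself differed by -0.04.

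**Figure D5:**
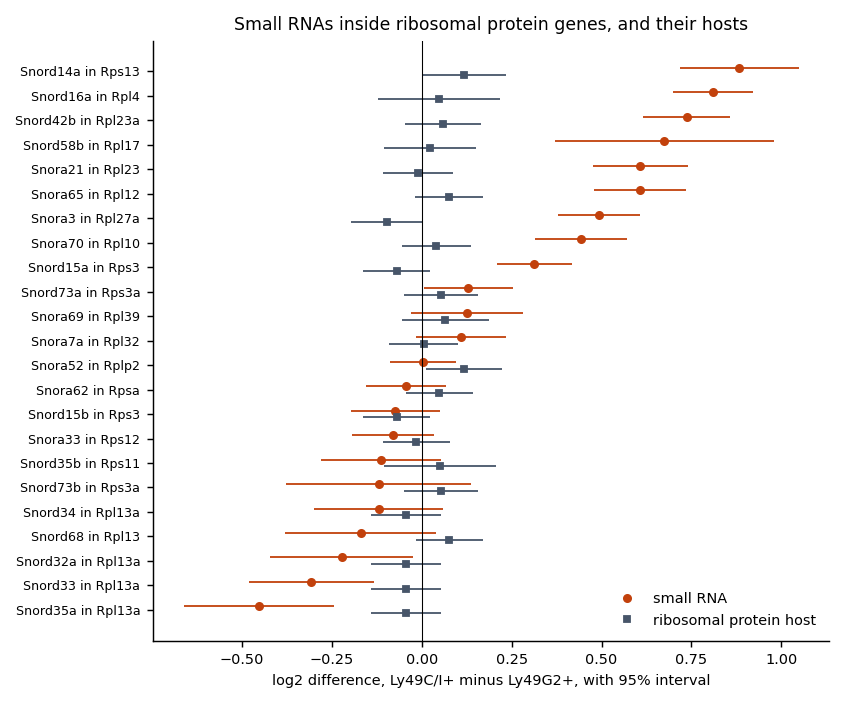
Log2 difference (Ly49C/I+ minus Ly49G2+, horizontal axis) with 95% interval of 23 of the 25 small RNAs inside ribosomal protein genes (circles) and of the host gene of each (squares). The hosts, averaged over all their rows, stay within 0.12 of equality. Of these small RNAs 9 pass to the right and 2, both in Rpl13a, to the left.

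Of the other genes of translation, few passed. Of the initiation factors, a list that also holds Eif4ebp1 and Eif4ebp2, 0 of 41 passed in limma. At an unadjusted p under 0.05 there were 6 toward Ly49C/I+, Eif4ebp2 among them, and 3 toward Ly49G2+, Eif4ebp1 among them. Of the elongation factors, a list that also holds Eef2k and Eef1e1, 0 of 9 passed. At an unadjusted p under 0.05 there were 2 in each direction, Eef2k and Eef1e1 among them. The median size of the difference was 0.073 in the first list and 0.102 in the second, both above the 0.062 of all genes and the 0.041 of the ribosomal protein genes. Eif4a1, the helicase of the cap-binding complex, had the lowest p of the first list, with a difference of 0.18 (adjusted p = 0.056), and Eif5a, which helps elongation through difficult stretches, that of the second, with 0.14 (adjusted p = 0.0875). Eif4ebp2 and Eif4ebp1, both of which hold back the cap-binding factor, differed by 0.17 and -0.16 (adjusted p = 0.058 and 0.0587). Fau, a ribosomal protein made as a fusion with a ubiquitin-like protein and named outside the symbol pattern, differed by -0.05.

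In the S6 kinase, mTOR and LARP1 pathway 2 of 20 genes passed, 1 in each direction, beside 9.88% of all genes, and the median size of the difference was 0.072. Rictor, a subunit of mTOR complex 2, rose by 0.22 (adjusted p = 0.0121), and Rps6ka2, a kinase of the RSK family, was lower by -0.42 (adjusted p = 0.0032). Mtor and Larp1 differed by 0.04 and -0.07. A list made for import and rescue of ribosomal proteins also held other genes, among them Tsr1, needed for maturation of the small subunit, and Mdm2, which Rpl5 and Rpl11 bind. In limma Tsr1 rose by 0.21 (adjusted p = 0.0309) and Mdm2 was lower by -0.23 (adjusted p = 0.0098), with 20 of the 22 listed genes not passing. Rictor lost its call without Ly49C/I+ replicate 3 (adjusted p = 0.0549), and Tsr1 without replicate 1 or 3 of Ly49C/I+ or replicate 1 or 2 of Ly49G2+ (0.056 to 0.11). With the median over probe sets none of Rictor, Rps6ka2, Tsr1 and Mdm2 passed (adjusted p = 0.0525 to 0.342). Over all genes that setting gave 467 calls toward Ly49C/I+ and 224 toward Ly49G2+, beside 1321 and 797 as reported.

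Rack1, a scaffold on the small subunit, differed by 0.03, with an interval from -0.07 to 0.12. A separate row listed under its older symbol Gnb2l1, with 1 probe set, had 9.16, 9.05 and 9.14 in Ly49C/I+ cells, against 8.33, 8.40 and 8.42 in Ly49G2+ cells and rose by 0.73 (adjusted p = 6.36e-05). It was the only 1 of the 6 listed symbols of ribosome-bound factors to pass, a list in which Rack1 appears under both symbols, and the files do not say which part of the gene it reads.

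Mitochondrial ribosomal proteins, a separate set that serves the translation of mitochondrial transcripts, gave 6 passing genes of 77, 4 toward Ly49C/I+ and 2 toward Ly49G2+, beside 9.88% of all genes in either direction, with a median difference of 0.034. Mrpl17, Mrpl46, Mrps26 and Mrpl49 rose by 0.30, 0.29, 0.26 and 0.23, and Mrpl45 and Mrps6 were lower by -0.18 each. With the median over probe sets, where calls over all genes also fell, none of the 6 passed (adjusted p = 0.0763 to 0.877). Mrpl46 then had a difference of 0.04. Mrpl46 kept its call with any 1 array left out, but lost it without moderation (0.0606) and with the deposited p-values (0.148). Mrps26 lost it without Ly49C/I+ replicate 3 (adjusted p = 0.0516), Mrpl17 without Ly49C/I+ replicate 1 or 2 (0.0567 to 0.0583), and Mrpl49, Mrpl45 and Mrps6 lost it when any 1 of 5 of the 6 arrays was left out (0.0603 to 0.152). The 63 intervals within 1.2-fold made up 81.8% of this set, beside 91.9% of the cytosolic one.

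The sorting receptors that were measured differed in the direction of the group labels. Klra9, which encodes Ly49I, had 11.48, 11.66 and 11.81 in Ly49C/I+ cells, against 9.78, 9.46 and 9.78 in Ly49G2+ cells, and Klra3, which encodes Ly49C, was higher by 0.85 (adjusted p = 0.000137). Ly49G2+ replicate 1 lay with its own group for both. All 10 NK markers lay above the median gene, Klrk1 was the 1 that passed (0.21), and 0 of 10 B cell, 7 of 12 T cell and 4 of 12 myeloid markers lay above that median. Of 12 T cell markers 4 were lower in Ly49C/I+ cells, namely Cd3e by -2.23, Cd3d by -1.77, Cd3g by -0.99 and Cd8a by -0.72, although the gate was CD3-negative. The summed T cell marker signal was 13.40 to 13.44 in Ly49C/I+ cells and 13.70 to 13.74 in Ly49G2+ cells, and its part in the results for Rpl7 and Rpl9 was not tested. Of 12 myeloid markers, Itgam passed toward Ly49C/I+ (0.35) and Cd14 and Ly6g toward Ly49G2+ (-0.22 and -0.23). The 4 T cell marker calls held with any 1 array left out, while Klrk1, Itgam, Cd14 and Ly6g lost theirs without at least 1 array (adjusted p = 0.0537 to 0.113). The 6 arrays had median signals of 7.73 to 7.75 over all probe sets.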

How the data were processed

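Partek and RMA made the values, per the submitters' processing notes; neither versions nor settings nor a genome build is stated there. Per the labels' protocols, 100 ng of RNA with integrity numbers above 9 was amplified. The authors deposited log2 values per probe set and array, and a table with a p-value and a ratio (Ly49C/I+ over Ly49G2+) per transcript cluster. A probe set was assigned to the cluster whose ID it follows in number order (241383 joined, 193 not; r = 0.99 against deposited means and 0.977 against deposited differences, across clusters). Log2 values were averaged per cluster, then per gene, with symbols updated through RefSeq.

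Differences were tested two-sided with limma 3.58.1 in R 4.3.3 without a trend (Benjamini-Hochberg over 21441 genes, threshold 0.05); Python 3.11.15, pandas 2.3.3, numpy 2.4.6 and matplotlib 3.10.9 did the rest. The test was tried on simulated data. There is no read depth for arrays, and the 3 per group set the precision. The members, gene lists, tests and alternatives were chosen with earlier results of these data known. Genes named are the 8 of lowest p in each direction, the paralogue-like genes and their namesakes, stalk and 5S-associated proteins, Rpsa, Rps6, Rack1 and Fau, the passing or lowest-p genes of each list, and small RNAs inside members. Results of some genes are counted in the totals but not reported here by name or drawn. Other genes, among them Rpl28, Eif4ebp1, Eif4ebp2 and single probe sets, were chosen after their values were seen. The alternatives changed moderation, normalization, filters, probe-set summary, array weights, pairing and the arrays included. Same-numbered replicates were not paired by the labels.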

Additional observations from a re-analysis of the deposited data

How the results depend on the processing

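Leaving out each array in turn gave 0 to 1 ribosomal protein genes higher in Ly49C/I+ cells, 0 to 1 higher in Ly49G2+ cells, a median difference of -0.017 to 0.021, 3 to 8 and 2 to 4 genes of the other translation lists, 8 to 10 and 1 to 2 small RNAs inside the genes, 1.87 to 2.06 for Klra9 and 0.78 to 0.92 for Klra3. The family's counts, Ly49C/I+ first, were 2 and 4 with a variance trend and robust moderation, 0 and 1 without moderation, 1 and 2 with quantile normalization again, with genes above the 25th percentile and with array weights, 1 and 0 with the median over probe sets, 1 and 6 with the authors' deposited p-values, and, in 2 alternatives chosen after seeing the data, 3 and 3 with the row of most probe sets and 2 and 2 with all probe sets averaged. Over all genes the counts were 1321 and 797 as reported, 1619 and 1014 with the trend and 554 and 344 without moderation. They were 1277 and 1024 with quantile normalization, 1433 and 895 above the 25th percentile and 1460 and 1077 with array weights. The median over probe sets gave 467 and 224, and the deposited p-values 716 and 452. The row of most probe sets gave 1293 and 796, and all probe sets averaged 1327 and 809. The calls in the deposited p-values were Rpl12 higher, and Rpl18, Rpl27a, Rpl6, Rpl9, Rps16 and Rps21 lower in Ly49C/I+ cells. The other translation lists, 7 and 4 as reported, gave 12 and 10 with the trend, 2 and 2 without moderation and 1 and 1 with the median over probe sets. Toward Ly49G2+ cells they gave 9 with quantile normalization, 7 with array weights and 2 without dim probe sets. The small RNAs lower in Ly49C/I+ cells, 2 as reported, were 0 without moderation, with the median over probe sets and with deposited p-values, and 1 without dim probe sets. Rpl30 had a difference of 0.67 with the median over probe sets and 0.14 in the deposited table, and lost its call without moderation (adjusted p = 0.167). The cause of these shifts was not tested.

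The replicate number as a block gave 1 and 1 ribosomal protein genes, with Rpl30 at an adjusted p of 0.00684 and Rpl7 at 0.0419 in limma, and 2 other translation genes higher in Ly49G2+ cells. Over all genes it gave 981 and 495 calls, beside 1321 and 797 without it. Deviations of same-numbered arrays correlated at -0.076, -0.186 and -0.046, and those of differently numbered arrays at -0.143 to 0.186. Deviations around a mean of 3 arrays depend on each other. These values therefore cannot decide whether same-numbered samples shared more than a number. The median difference of the family stayed within its spread between arrays (SD 0.026) under all 20 alternatives, and no result turned its direction while called. Signals near the top of the array's range (14.18 to 14.21) limit what the brightest genes can show.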
